A study of Arabidopsis thaliana with 6 samples.

Results

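Aquaporins are the major intrinsic proteins of plants, and the genes described here are the 35 aquaporin genes of Arabidopsis thaliana among the 37051 genes of the count table. They were taken by gene identifier as the whole family: 13 plasma membrane intrinsic proteins (PIP), 10 tonoplast intrinsic proteins (TIP), 9 NOD26-like intrinsic proteins (NIP) and 3 small basic intrinsic proteins (SIP). The values come from 6 RNA-seq libraries of wild-type Col-0 inflorescence stems, cut from the snap-frozen 2nd internode by laser capture microdissection (LCM), in which a laser frees a chosen area of a section for RNA extraction. Each tissue had 2 libraries: phloem cap, pith, and the vascular bundle that remained once its phloem cap had been removed. All plants were untreated, of the same strain and moved from short to long days to make them flower, and the RNA of every library had passed 2 rounds of amplification. Nothing in the labels ties the libraries of a tissue to separate plants, so that p-values measure the spread between libraries, which may be technical.

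Aquaporins form pores through which water and small uncharged molecules cross membranes. PIP proteins act at the plasma membrane and fall into the PIP1 and PIP2 classes, with PIP1 proteins often depending on a PIP2 partner to reach the cell surface. TIP proteins sit in the membrane of the vacuole, SIP proteins in the endoplasmic reticulum, and several NIP proteins carry boric acid or other small solutes rather than mainly water. In stems, water moves along the xylem and is exchanged with the phloem and the living cells around it, and the large vacuolated cells of the pith store water.

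The libraries held between 19324189 and 22571632 counts. Levels within a gene are given as counts scaled to the library size (CPM) with library sizes adjusted by the trimmed mean of M-values (TMM), and levels of different genes or sums as length-scaled values (TPM), which divide each count by gene length. Where a gene had 0 counts, counting error alone allows up to 3, which is 0.126 to 0.165 CPM. The labels were checked against marker genes. The 8 xylem markers summed to 254 and 714 CPM in phloem cap, to 217 and 162 CPM in pith and to 5164 and 5426 CPM in vascular bundle. The 8 phloem markers summed to 4022 and 2496, to 51.5 and 71.9, and to 1980 and 1222 CPM in the same order of tissues. Epidermis markers, mainly the wax genes CER1 and CER6, summed to 27.2 and 167 CPM in phloem cap and 6.17 and 12.2 CPM in pith, against 720 and 785 CPM in the vascular bundle. Of the same 7 genes, LTP1 had 7.25 and 0.631 CPM in phloem cap, 1.60 and 0.0526 CPM in pith and 0.521 and 0.427 CPM in vascular bundle, and PDF1 was at 0 in the pith and the vascular bundle. The tissues therefore separated by their xylem and phloem markers, while CER1 and CER6 were highest in the vascular bundle. In phloem cap, the xylem and epidermis sums were higher in replicate 2 than in replicate 1. Not all lists separated the tissues. The cambium marker PXY (574 and 528 CPM) and the starch sheath marker SCR (19.9 and 26.8 CPM) were highest in pith. The other genes of these lists were lowest there. In such tissue samples, fewer cells of a type and less RNA per cell cannot be told apart.

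Of the 35 genes, 25 had enough counts to be tested by edgeR in at least 1 comparison and 23 in every comparison. All 13 PIP and all 3 SIP genes were among the 25, together with 5 of the 10 TIP genes and 4 of the 9 NIP genes. At the other end, TIP3;1, NIP1;1, NIP2;1 and NIP4;2 had no count in any library. Aquaporins were abundant transcripts in each tissue. They made up 0.891% of all TPM in phloem cap, 1.04% in pith and 0.618% in vascular bundle (means of 2 libraries). Summed over the family, the level was 5921 and 11896 TPM in phloem cap, 7790 and 12947 TPM in pith and 5727 and 6635 TPM in vascular bundle. The phloem cap and the pith overlapped in this sum, and the lower phloem cap library lay within the range of the vascular bundle.

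**Figure D1:**
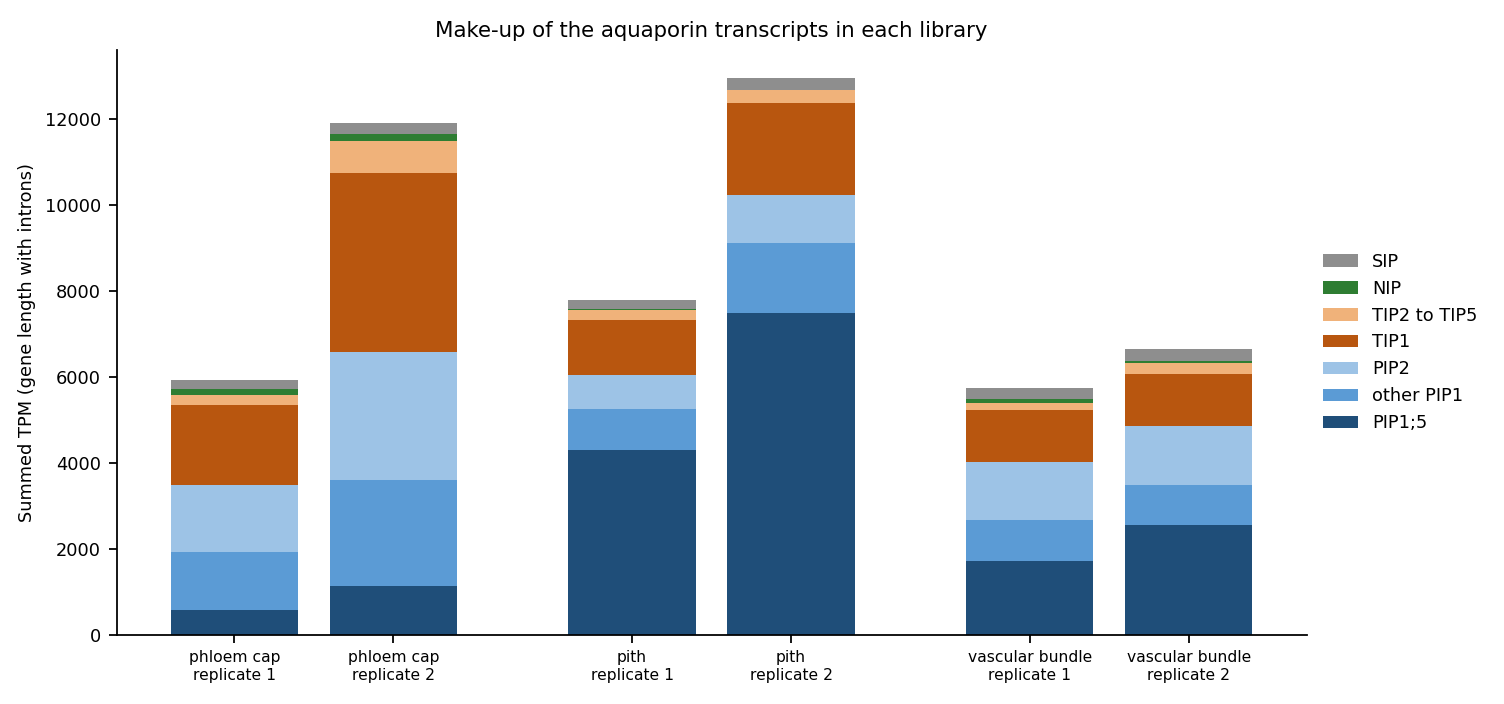
Stacked bars show the summed TPM (y axis, gene length with introns) of the aquaporin genes in each library, split by class, with PIP1;5 drawn apart from the other PIP1 genes. PIP1;5 makes up most of the bar in both pith libraries and under 10% in both phloem cap libraries.

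What differed between tissues was the make-up of the family. PIP1;5 (AT4G23400), a plasma membrane water channel, held 9.76% and 9.61% of the family's TPM in phloem cap and 55.0% and 57.8% in pith, against 30% and 38.3% in the vascular bundle. The leading gene of the phloem cap was TIP1;2 (AT3G26520), a water channel of the vacuole membrane, with 15.4% and 20.0% of the family's TPM, followed in mean TPM by TIP1;1 and PIP2;7. In the other tissues PIP1;5 had the highest TPM. The leading gene of each tissue was the same with exon length in place of gene length.

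By subfamily, PIP genes summed to 3476 and 6575 TPM in phloem cap, 6042 and 10236 TPM in pith and 4023 and 4851 TPM in vascular bundle. PIP1 genes summed to 5248 and 9116 TPM in the pith, against 2674 and 3481 TPM in the vascular bundle, while PIP2 genes summed to 794 and 1120 TPM in the pith, against 1348 and 1369 TPM in the vascular bundle. Neither pair of ranges overlapped. Most of the PIP1 difference lay in PIP1;5, as the other 4 genes summed to 960 and 1632.5 TPM in pith, against 957 and 937 TPM in the vascular bundle. Without PIP2;6, PIP2 genes summed to 444 and 677 TPM in pith, against 1332 and 1337 TPM in the vascular bundle. TIP genes summed to 2093 and 4912 TPM in phloem cap, 1512 and 2424 TPM in pith and 1360 and 1456 TPM in vascular bundle. For NIP genes the sums were 145 and 168 TPM in phloem cap, 9.02 and 13.6 TPM in pith and 99.4 and 59.7 TPM in vascular bundle, so that the pith lay far under the other tissues. SIP genes gave 206 and 241, 228 and 274, and 245 and 268 TPM in the same order, where pith overlapped both other tissues. No test was made on these sums, because the smallest p of a two-sided exact permutation test of 2 libraries against 2 is 0.333.

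**Figure D2:**
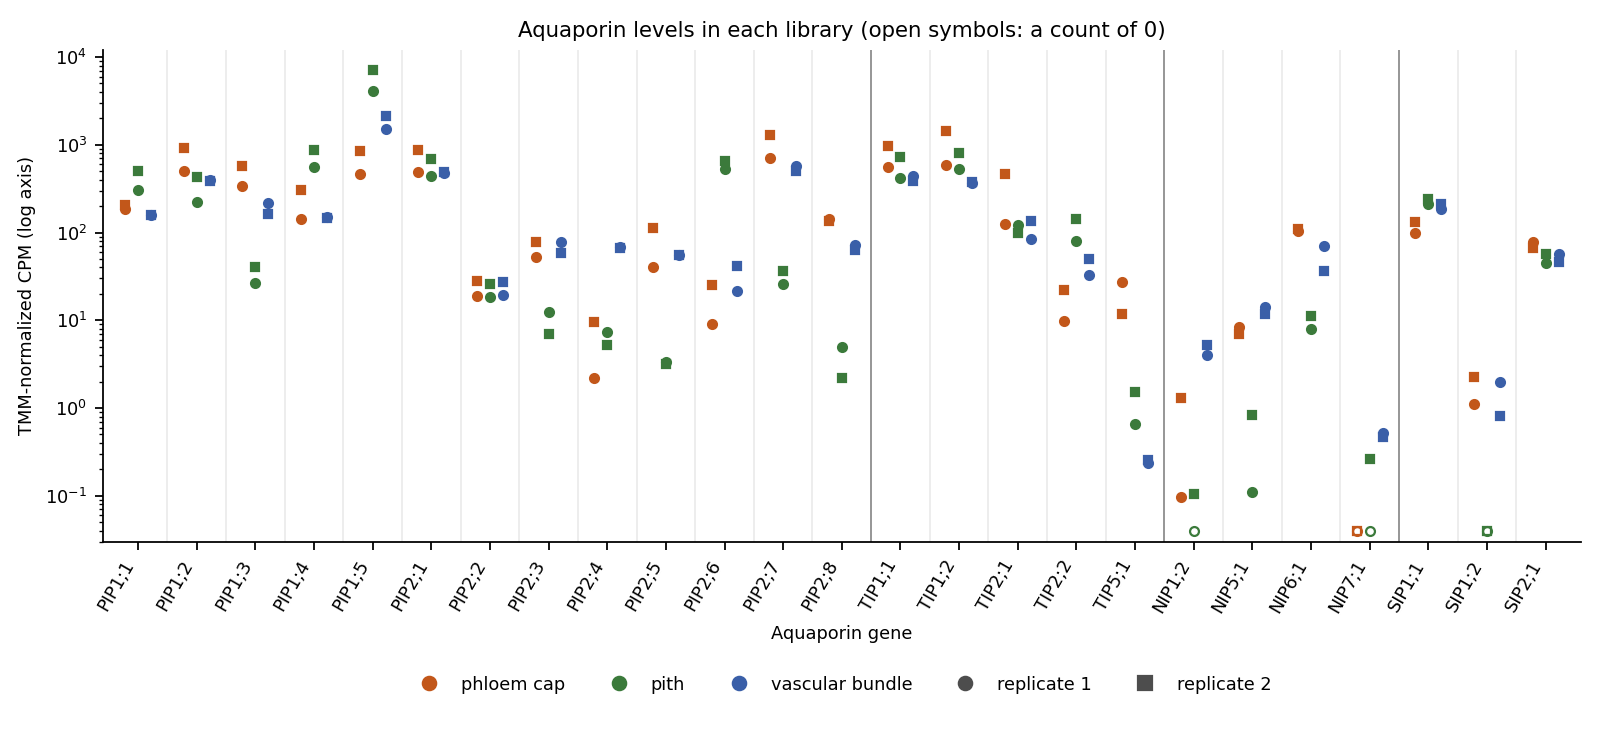
Points show the TMM-normalized CPM (log axis) of the 25 tested aquaporin genes in each library, with phloem cap, pith and vascular bundle side by side for each gene and open symbols at the bottom for a count of 0. Pith points lie far under those of the other tissues for PIP1;3, PIP2;3, PIP2;5, PIP2;7, PIP2;8, NIP5;1 and NIP6;1, and far above them for PIP2;6.

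Differences were tested for each gene with edgeR's quasi-likelihood test over all genes, and a gene was called at a Benjamini-Hochberg adjusted p under 0.01 with a change of more than 2-fold. In pith against the vascular bundle, 2 of the 25 aquaporins tested were higher (8%) and 9 were lower (36%). Over all 18063 genes tested, 5.44% were called higher and 10.5% lower. The 2 higher genes were PIP1;4 and PIP2;6. The 9 lower genes were PIP1;3, PIP2;3, PIP2;4, PIP2;5, PIP2;7, PIP2;8, NIP1;2, NIP5;1 and NIP6;1. The median log2 fold change of the 25 was -0.07. DESeq2's Wald test called 5 higher, adding PIP1;1, PIP1;5 and TIP2;2, and 10 lower, adding SIP1;2, where it called 8.19% and 13.6% of all genes. A single fit over all 6 libraries called 2 higher and 8 lower (3.84% and 9.4% of all genes), and an adjusted p of 0.05 gave 5 and 10 (10.1% and 18% of all genes). By levels alone, both pith libraries lay above both vascular bundle libraries for 7 aquaporins and under them for 11, as they did for 32.2% and 37.6% of all genes tested.

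In phloem cap against pith, 7 of 23 aquaporins were higher and 3 were lower, where edgeR called 8.33% of all 18201 genes higher and 4.34% lower. The higher genes were PIP1;3, PIP2;3, PIP2;5, PIP2;7, PIP2;8, TIP5;1 and NIP6;1, and the lower ones were PIP1;5, PIP2;6 and TIP2;2. The median log2 fold change of the 23 was 0.59. DESeq2 called 9 higher and 4 lower (12.3% and 7.2% of all genes), a single fit over all 6 libraries 9 and 3 (10.4% and 5.84%), and an adjusted p of 0.05 gave 9 and 4 (16.5% and 9.77%). Both phloem cap libraries lay above both pith libraries for 12 aquaporins and under them for 6, as they did for 35% and 29.9% of all genes tested. This comparison shares the pith libraries with the one before. Called lower in the pith than in both other tissues were PIP1;3, PIP2;3, PIP2;5, PIP2;7, PIP2;8 and NIP6;1. PIP2;6 was called higher in the pith than in both. The share of all genes called in both comparisons was not computed.

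Against the vascular bundle, edgeR called 0 of the 25 aquaporins in phloem cap, as it called 0% of the 18528 genes tested. At an unadjusted p under 0.05, 5 aquaporins were higher in the phloem cap and 7 were lower, as were 9.93% and 11% of all genes. DESeq2 called 2 higher, TIP5;1 and PIP2;8, and 2 lower, PIP1;5 and PIP2;4, where it called 2.89% and 3.92% of all genes. With an adjusted p of 0.05 in edgeR, TIP5;1 was called higher and 0 were lower (0.146% and 0.351% of all genes). The median log2 fold change of the 25 was 0.45. Levels in both phloem cap libraries lay above both vascular bundle libraries for 10 aquaporins and under them for 7, as for 27.5% and 26.4% of all genes tested. Without phloem cap replicate 1, the edgeR log2 fold change was 1.57 for PIP1;3, 1.92 for TIP1;2 and 2.08 for TIP2;1. For TIP5;1 it was then 5.53, for PIP2;4 -2.84, for PIP1;5 -1.10, for TIP2;2 -0.92 and for NIP1;2 -1.85. Without phloem cap replicate 2, the value was 0.83 for PIP1;3, 0.64 for TIP1;2 and 0.17 for TIP2;1. For TIP5;1 it was then 6.75, for PIP2;4 -4.97, for PIP1;5 -1.98, for TIP2;2 -2.10 and for NIP1;2 -5.54. Calls from these fits are not interpreted, because the lone phloem cap library is assumed to vary like those of the vascular bundle.

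**Figure D3:**
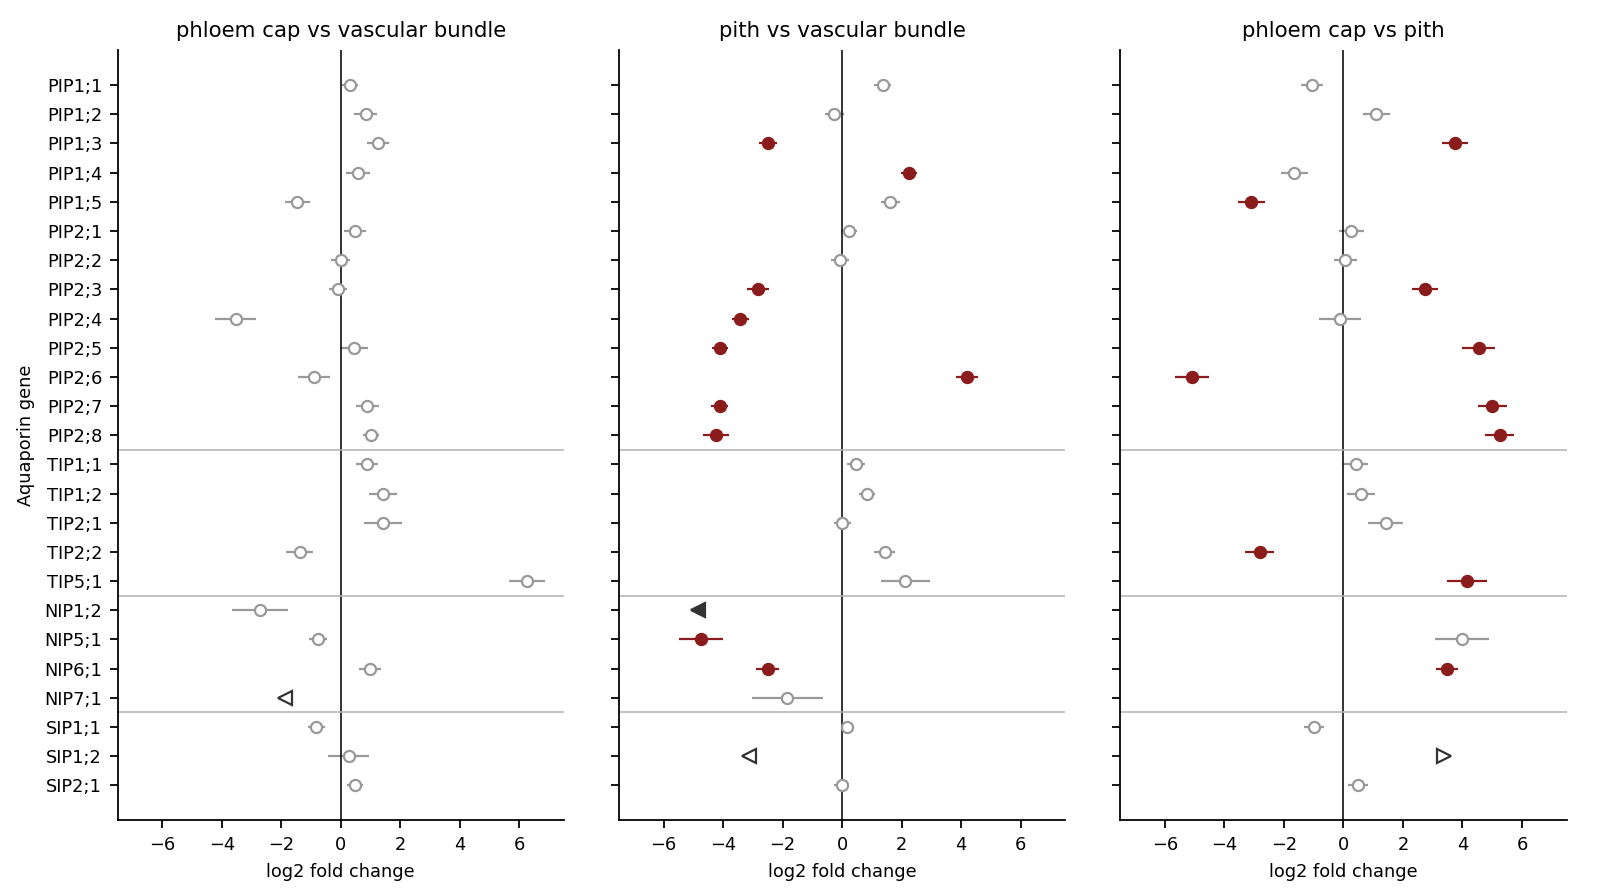
Points show the log2 fold change (x axis) of each tested aquaporin in the 3 comparisons, with bars of 1 SE from edgeR, filled where the gene was called and open where it was not. Triangles, pointing away from 0, mark folds against a limit of 3 counts a library, for genes with 3 counts or fewer in each library of the lower tissue. Filled points number 11 in pith against vascular bundle, 10 in phloem cap against pith and 0 in phloem cap against vascular bundle.

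The PIP1 class has 5 members. PIP1;5, the most abundant aquaporin of the pith, had 469 and 856 CPM in phloem cap, 4151 and 7073 CPM in pith and 1512 and 2116 CPM in vascular bundle. The tissues did not overlap and were in the order pith, vascular bundle, phloem cap. The log2 fold change of phloem cap against pith was -3.09 ± 0.47 (SE, adjusted p = 0.00226, edgeR). Against the vascular bundle the pith value was 1.63 ± 0.33, with an edgeR adjusted p of 0.0105 that just missed the threshold, and 1.1e-05 by DESeq2. With single libraries left out, this log2 fold change ran from 1.19 (without pith replicate 2) to 1.96 (without pith replicate 1). For phloem cap against the vascular bundle the value was -1.47 ± 0.42, with an adjusted p of 0.114 by edgeR and of 0.00412 by DESeq2.

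PIP1;4 (AT4G00430), which can pass hydrogen peroxide and carbon dioxide as well as water, had 144 and 309 CPM in phloem cap, 559 and 862 CPM in pith and 150 and 147 CPM in vascular bundle. Pith libraries stood above all others, and the phloem cap overlapped the vascular bundle. It rose in the pith by 2.25 ± 0.28 on the log2 scale against the vascular bundle (SE, adjusted p = 0.00172, edgeR). Its nearest relative PIP1;3 (AT1G01620) had 342 and 567 CPM in phloem cap, 26.8 and 40.7 CPM in pith and 215 and 162 CPM in vascular bundle. Here the pith was the lowest tissue. The log2 fold change of PIP1;3 was -2.49 ± 0.30 in pith against the vascular bundle (adjusted p = 0.00158, edgeR) and 3.74 ± 0.43 in phloem cap against pith (adjusted p = 0.000718). For phloem cap against the vascular bundle it was 1.25 ± 0.37, which was not called.

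PIP1;1 (AT3G61430) had 185 and 207 CPM in phloem cap, 306 and 506 CPM in pith and 158 and 159 CPM in vascular bundle. Pith libraries were again the highest, with a log2 fold change of 1.36 ± 0.29 against the vascular bundle that was not called by edgeR (adjusted p = 0.0129) and was called by DESeq2 (adjusted p = 9.12e-05). PIP1;2 (AT2G45960), a water channel of roots and leaves, had 506 and 917 CPM in phloem cap, 225 and 433 CPM in pith and 400 and 389 CPM in vascular bundle. Its phloem cap libraries were the highest and pith overlapped the vascular bundle, and no comparison was called.

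In the PIP2 class, the main water channels of the plasma membrane, 5 of 8 genes were called lower and 1, PIP2;6, was called higher in pith than in the vascular bundle, where 10.5% and 5.44% of all genes were. PIP2;7 (AT4G35100) was the most abundant of them outside the pith. It had 709 and 1300 CPM in phloem cap, 25.8 and 36.3 CPM in pith and 568 and 503 CPM in vascular bundle. The pith thus held a small remainder of a transcript that was among the most abundant aquaporins elsewhere. Its log2 fold change was -4.11 ± 0.28 in pith against the vascular bundle (SE, adjusted p = 0.000287, edgeR) and 5.01 ± 0.48 in phloem cap against pith (adjusted p = 0.000334).

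PIP2;8 (AT2G16850), the nearest relative of PIP2;7, had 143 and 134 CPM in phloem cap, 5.01 and 2.21 CPM in pith and 72.2 and 63.5 CPM in vascular bundle. All tissues were apart, with the pith lowest. It fell by 4.24 on the log2 scale in pith against the vascular bundle (SE 0.43, adjusted p = 0.000817, edgeR), with a log2 fold change of -4.94 without pith replicate 1. Against pith, PIP2;8 was higher in phloem cap by 5.26 ± 0.49 (adjusted p = 0.000332), and by 5.94 without pith replicate 1. The value of phloem cap against the vascular bundle, 1.01 ± 0.26, was called by DESeq2 (adjusted p = 0.0072) and not by edgeR (adjusted p = 0.0885).

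PIP2;6 (AT2G39010), a channel that contributes to water transport in rosette leaves, ran the other way. It had 9.18 and 25.1 CPM in phloem cap, 523 and 646 CPM in pith and 21.7 and 41.8 CPM in vascular bundle. Both pith libraries were far above every other library. PIP2;6 had a log2 fold change of 4.20 ± 0.38 in pith against the vascular bundle (SE, adjusted p = 0.000569, edgeR) and -5.10 ± 0.56 in phloem cap against pith (adjusted p = 0.000685), or -6.02 without phloem cap replicate 2. PIP2;5 (AT3G54820), its nearest relative, had 41.0 and 113 CPM in phloem cap, 3.36 and 3.21 CPM in pith and 55.8 and 56.2 CPM in vascular bundle. The pith was far lower than the other tissues, which overlapped. PIP2;5 fell by 4.09 on the log2 scale in pith against the vascular bundle (SE 0.27, adjusted p = 0.000276, edgeR). Against pith, PIP2;5 was higher in phloem cap by 4.54 ± 0.56 (adjusted p = 0.00102), and by 3.61 without phloem cap replicate 2.

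PIP2;3 (AT2G37180) had 52.8 and 78.1 CPM in phloem cap, 12.4 and 6.99 CPM in pith and 78.4 and 59.2 CPM in vascular bundle. It was low in pith alone, with a log2 fold change of -2.83 ± 0.36 against the vascular bundle (SE, adjusted p = 0.00183, edgeR) and of 2.75 ± 0.43 in phloem cap against pith (adjusted p = 0.0026). PIP2;2 (AT2G37170), which lies 2612 bases away on chromosome 2 and is the gene most like it, had 18.8 and 28.2 CPM in phloem cap, 18.6 and 26.1 CPM in pith and 19.6 and 27.1 CPM in vascular bundle. No tissue stood apart for PIP2;2, whose log2 fold change in pith against the vascular bundle was -0.07 ± 0.31. Some 14.7% of the exonic 50-base windows of PIP2;2 and 16.5% of those of PIP2;3 occur elsewhere in the genome, so that reads from these windows were not counted for either gene and both values are uncertain to that extent.

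PIP2;4 (AT5G60660), a channel best known from roots, was high in the vascular bundle libraries alone. It had 2.17 and 9.51 CPM in phloem cap, 7.33 and 5.20 CPM in pith and 67.8 and 66.6 CPM in vascular bundle. Phloem cap and pith overlapped, and both were far under the vascular bundle. PIP2;4 had a log2 fold change of -3.43 ± 0.29 in pith against the vascular bundle (SE, adjusted p = 0.000434, edgeR). Phloem cap against the vascular bundle gave -3.53 ± 0.69, not called by edgeR (adjusted p = 0.0689) and called by DESeq2 (adjusted p = 3.79e-07). Leaving out phloem cap replicate 1 gave -2.84 in edgeR and leaving out phloem cap replicate 2 gave -4.97. PIP2;4 was higher in phloem cap replicate 2 than in replicate 1, as were the summed xylem markers (714 against 254 CPM) and epidermis markers (167 against 27.2 CPM), whose part in the result was not tested.

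PIP2;1 (AT3G53420), a water channel of guard cells, roots and leaf veins, had 485 and 884 CPM in phloem cap, 441 and 693 CPM in pith and 472 and 496 CPM in vascular bundle, with all tissues overlapping. Its log2 fold changes were 0.49 ± 0.38 in phloem cap against the vascular bundle, 0.23 ± 0.27 in pith against the vascular bundle and 0.26 ± 0.41 in phloem cap against pith, none of them called.

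Nearest relatives were next set against each other. Coding sequences were aligned in pairs, and 12 pairs of genes were each other's closest match, of which 8 had both members tested in the pith. In 2 of these 8 pairs, PIP1;3 with PIP1;4 and PIP2;5 with PIP2;6, both genes were called in pith against the vascular bundle in opposite directions. In another 2 pairs, PIP2;7 with PIP2;8 and NIP5;1 with NIP6;1, both genes were called and lower. PIP2;2 with PIP2;3 had 1 call, and the other 3 pairs had none by edgeR. The pairs that diverged were 85.2% and 78.3% identical over their aligned coding bases (734 of 861 and 672 of 858), against 84.6% (708 of 837) for PIP2;7 with PIP2;8 and 94.8% (813 of 858) for PIP2;2 with PIP2;3.

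**Figure D4:**
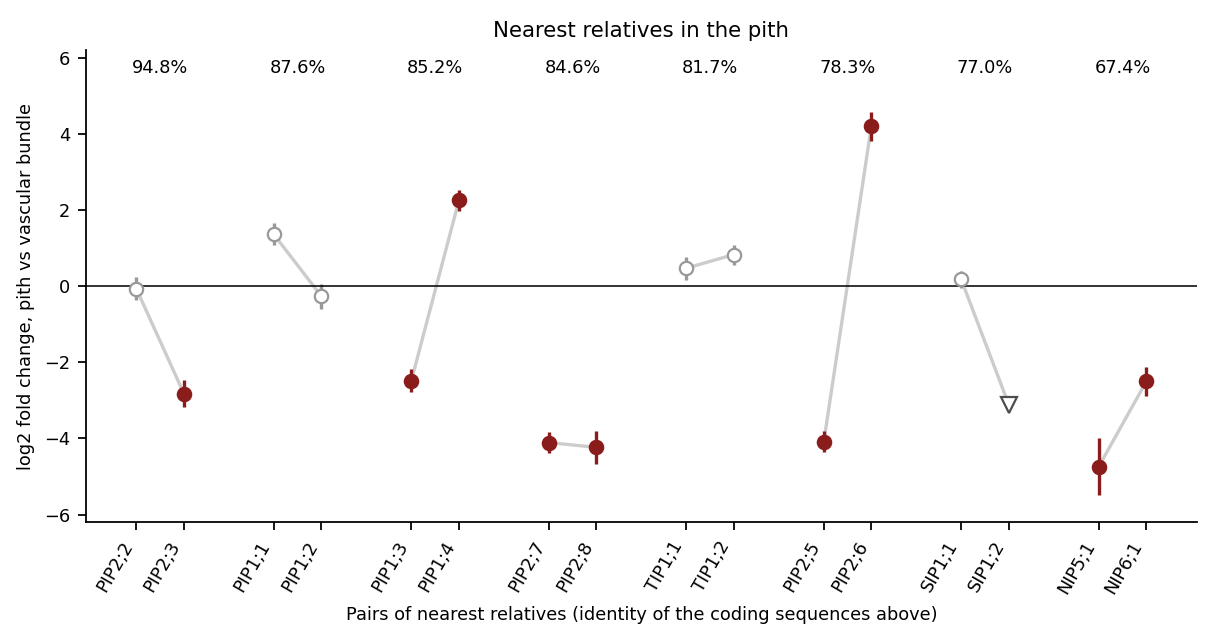
Points show the log2 fold change in pith against the vascular bundle (y axis, bars of 1 SE from edgeR) for the 8 pairs of nearest relatives with both members tested, sorted by the identity of their coding sequences, which is printed above each pair. Filled points were called, the open triangle is a bound, and lines join the members of a pair. PIP1;3 and PIP1;4, and PIP2;5 and PIP2;6, stand on opposite sides of 0.

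Stretches of 120 coding bases from the RefSeq annotation of TAIR10.1 give examples of the bases that differ between these relatives. Each is the first window without a gap in the alignment that lies in a single exon of both genes, on the coding strand, and capitals mark the bases that differ within the pair. PIP2;6 (chr2:16291594-16291713) and PIP2;5 (chr3:20302147-20302266) differ at 31 of these bases:
PIP2;6: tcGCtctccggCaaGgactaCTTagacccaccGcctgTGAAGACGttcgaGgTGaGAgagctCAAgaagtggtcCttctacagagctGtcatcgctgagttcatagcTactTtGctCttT
PIP2;5: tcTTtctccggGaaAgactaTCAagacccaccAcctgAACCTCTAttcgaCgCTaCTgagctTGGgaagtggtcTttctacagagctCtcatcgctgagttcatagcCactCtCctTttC
PIP1;4 (chr4:187331-187450, minus strand) and PIP1;3 (chr1:226979-227098, minus strand) differ at 21 bases:
PIP1;4: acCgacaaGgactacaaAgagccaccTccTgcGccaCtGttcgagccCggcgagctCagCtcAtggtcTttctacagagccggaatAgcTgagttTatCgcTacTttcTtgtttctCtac
PIP1;3: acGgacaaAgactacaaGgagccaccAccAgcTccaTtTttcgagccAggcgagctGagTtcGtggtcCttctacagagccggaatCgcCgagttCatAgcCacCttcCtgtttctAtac
PIP2;8 (chr2:7301677-7301796) and PIP2;7 (chr4:16708708-16708827), which fell together in pith, differ at 16 bases:
PIP2;8: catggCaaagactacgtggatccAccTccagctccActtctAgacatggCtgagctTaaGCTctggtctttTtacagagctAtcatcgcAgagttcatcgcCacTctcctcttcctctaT
PIP2;7: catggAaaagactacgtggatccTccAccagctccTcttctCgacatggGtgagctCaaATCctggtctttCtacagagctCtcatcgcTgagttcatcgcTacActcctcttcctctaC
PIP2;2 (chr2:15614672-15614791, minus strand) and PIP2;3 (chr2:15617779-15617898) differ at 12 bases:
PIP2;2: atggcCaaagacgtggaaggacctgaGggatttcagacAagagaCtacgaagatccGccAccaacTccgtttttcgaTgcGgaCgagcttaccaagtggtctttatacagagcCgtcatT
PIP2;3: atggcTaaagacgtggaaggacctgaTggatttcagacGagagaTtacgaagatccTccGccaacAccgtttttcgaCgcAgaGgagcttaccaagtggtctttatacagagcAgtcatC
Of the 8 genes, PIP2;2 and PIP2;3 alone had exonic windows of 50 bases with a second copy in the genome. The printed stretches were 74.2% (PIP2;6 with PIP2;5), 82.5% (PIP1;4 with PIP1;3) and 90% (PIP2;2 with PIP2;3) identical. Each of these was less than over the whole aligned coding sequences. For PIP2;8 with PIP2;7 the stretch was 86.7% identical, which was more than over the whole.

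Of the TIP subfamily, no gene was called in pith against the vascular bundle, and TIP1;1 and TIP1;2 led in every tissue. TIP1;2 had 591 and 1426 CPM in phloem cap, 532 and 800 CPM in pith and 371 and 376 CPM in vascular bundle. The vascular bundle was lowest, with a log2 fold change of 1.42 ± 0.47 in phloem cap (adjusted p = 0.153, edgeR) and of 0.83 ± 0.26 in pith (adjusted p = 0.0516), neither of them called. The phloem cap value was 1.92 without phloem cap replicate 1 and 0.64 without phloem cap replicate 2. The pith value was 1.10 without pith replicate 1 and 0.51 without pith replicate 2. TIP1;1 (AT2G36830), the other main water channel of vegetative vacuoles, had 556 and 974 CPM in phloem cap, 413 and 735 CPM in pith and 437 and 389 CPM in vascular bundle. Its phloem cap libraries were above those of the vascular bundle, pith overlapped both, and nothing was called.

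TIP2;1 (AT3G16240), which also carries ammonia, had 126 and 470 CPM in phloem cap, 122 and 99.7 CPM in pith and 84.7 and 135 CPM in vascular bundle. Phloem cap replicate 2 was the high library, and replicate 1 lay within the range of the vascular bundle. The log2 fold change in phloem cap was 1.42 ± 0.64 against the vascular bundle (adjusted p = 0.281, edgeR). It was 2.08 without phloem cap replicate 1 and 0.17 without phloem cap replicate 2. Against pith it was 1.41 ± 0.58 (adjusted p = 0.116, edgeR). That value was 2.05 without phloem cap replicate 1 and 0.15 without phloem cap replicate 2. Other genes lie over parts of TIP2;1 on the opposite strand, and counting ignored strand.

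TIP2;2 (AT4G17340) shared the order of PIP1;5. It had 9.71 and 22.0 CPM in phloem cap, 80.5 and 141 CPM in pith and 32.5 and 49.6 CPM in vascular bundle, with no overlap between tissues. The log2 fold change of phloem cap against pith was -2.81 ± 0.50 (SE, adjusted p = 0.00486, edgeR), and -3.53 without phloem cap replicate 2. In pith against the vascular bundle it was 1.43 ± 0.35, with an adjusted p of 0.0217 by edgeR and of 0.000791 by DESeq2. It was 1.78 without pith replicate 1 and 0.97 without pith replicate 2. Phloem cap against the vascular bundle gave -1.39 ± 0.45 (adjusted p = 0.151, edgeR). That value was -0.92 without phloem cap replicate 1 and -2.10 without phloem cap replicate 2.

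TIP5;1 (AT3G47440), known as a pollen aquaporin that can carry urea, had the largest increase in phloem cap over the vascular bundle among the 25 genes tested. It had 27.6 and 11.7 CPM in phloem cap, 0.661 and 1.52 CPM in pith and 0.237 and 0.256 CPM in vascular bundle. Counting ignored strand, and a gene on the opposite strand covers 91 bases of TIP5;1. The tissues did not overlap, but the vascular bundle values rest on 5 and 6 counts. Its log2 fold change was 6.27 ± 0.61 in phloem cap against the vascular bundle, with an edgeR adjusted p of 0.0486 and a DESeq2 adjusted p of 3.22e-16. Without phloem cap replicate 1 it was 5.53 in edgeR, and without phloem cap replicate 2 it was 6.75. Against pith it was higher in phloem cap by 4.16 ± 0.67 (adjusted p = 0.00297, edgeR), by 3.40 without phloem cap replicate 1, which ended the call (adjusted p = 0.014), and by 4.88 without pith replicate 2.

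Transcripts of pollen genes were present in the same libraries. A list of 11 pollen markers, drawn up after the values of TIP5;1 had been seen, summed to 821 and 183 CPM in phloem cap, 45.9 and 23.8 CPM in pith and 5.31 and 16.8 CPM in vascular bundle. VGD1, a pectin methylesterase of pollen tubes, was the most abundant of them, with 552 and 116 CPM in phloem cap. Of the 11 markers, 9 had counts in both phloem cap libraries, DUO1 had 0 in both, and HAP2 had 0 and 3. TIP1;3 (AT4G01470), another pollen aquaporin, had 51 and 4 counts in phloem cap, 1 and 0 in pith and 0 in both vascular bundle libraries. NIP4;1 (AT5G37810), also known from pollen, had 10 and 0 counts in the phloem cap and 0 in all other libraries. Phloem cap replicate 1 was the highest library for TIP5;1, TIP1;3, NIP4;1 and the summed markers. The part of pollen transcripts in the TIP5;1 result was not tested.

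**Figure D5:**
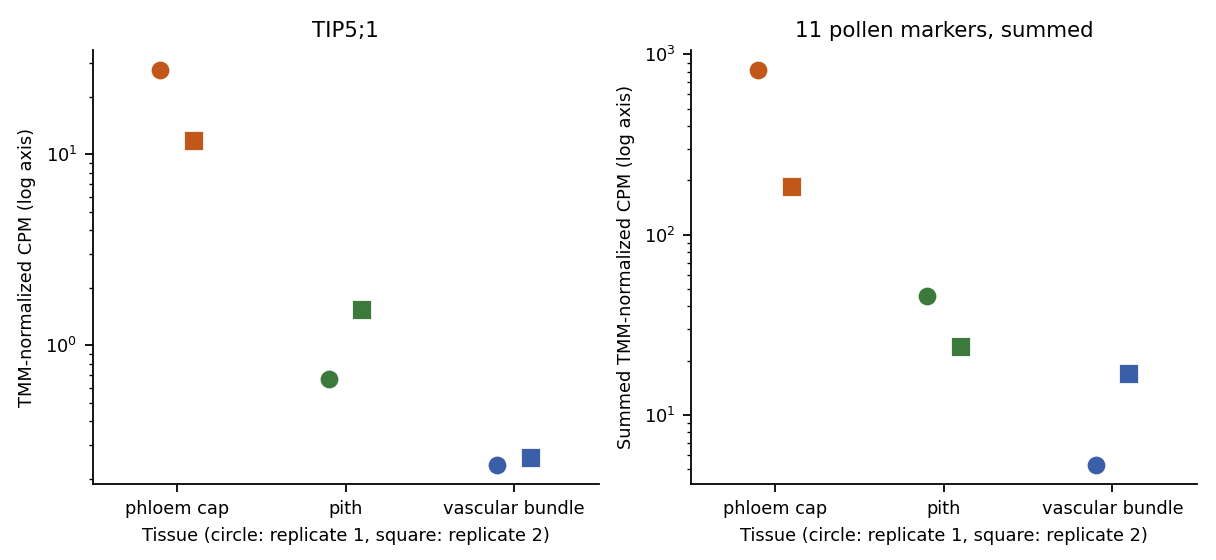
Points show the TMM-normalized CPM (log axes) of TIP5;1 on the left and the summed CPM of 11 pollen markers on the right in each library, by tissue. The phloem cap libraries are the highest in both panels, with 27.6 and 11.7 CPM for TIP5;1 and 821 and 183 CPM for the markers.

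Of the 4 NIP genes tested in pith against the vascular bundle, 3 fell in the pith, where 10.5% of all genes fell. The calls of NIP1;2 and NIP6;1 were lost under other settings, as given below. NIP5;1 (AT4G10380), a boric acid channel first known from boron uptake by roots, had 8.31 and 7.03 CPM in phloem cap, 0.110 and 0.841 CPM in pith and 14.2 and 11.8 CPM in vascular bundle. The order was vascular bundle, phloem cap, pith, with no overlap. Its log2 fold change was -4.74 ± 0.74 in pith against the vascular bundle (SE, adjusted p = 0.00407, edgeR), -3.94 without pith replicate 1 and -6.81 without pith replicate 2, where the lone pith library had 2 counts. Phloem cap against pith gave 3.98 ± 0.90, not called by edgeR (adjusted p = 0.0128) and called by DESeq2 (adjusted p = 9.07e-05). It was also called by edgeR over all 6 libraries (adjusted p = 0.00468). The value was 3.16 without pith replicate 1 and 6.04 without pith replicate 2.

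NIP6;1 (AT1G80760), a boric acid channel of nodes and young shoot tissues with a role beside the phloem, was the most abundant NIP gene. It had 104 and 110 CPM in phloem cap, 7.93 and 11.1 CPM in pith and 71.1 and 36.7 CPM in vascular bundle. The phloem cap was highest and the pith lowest. NIP6;1 had a log2 fold change of 3.49 ± 0.37 in phloem cap against pith (SE, adjusted p = 0.000501, edgeR) and -2.50 ± 0.39 in pith against the vascular bundle (adjusted p = 0.00401). Without vascular bundle replicate 1, the value in pith against the vascular bundle was -1.91 and the call was lost (adjusted p = 0.0203). For phloem cap against the vascular bundle it was 0.98 ± 0.36, which was not called.

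NIP1;2 (AT4G18910), which carries arsenite and an aluminium-malate complex, had 0.0966 and 1.30 CPM in phloem cap, 0 and 0.105 CPM in pith and 4.07 and 5.25 CPM in vascular bundle. It was thus near the limit of counting outside the vascular bundle, with 2 and 31 counts in phloem cap and 0 and 2 in pith. Set against a limit of 3 counts in a library, NIP1;2 was 28.9-fold lower in pith than in the vascular bundle. This is not a strict bound, as the pith libraries had 0 and 2 counts. The difference was called in pith (adjusted p = 0.00371, edgeR). That call was lost without vascular bundle replicate 1 (adjusted p = 0.0151), without vascular bundle replicate 2 (adjusted p = 0.0315) and in the fit over all 6 libraries (adjusted p = 0.0152). In phloem cap against the vascular bundle the log2 fold change was -2.72 ± 0.95 (adjusted p = 0.18, edgeR). It was -1.85 without phloem cap replicate 1 and -5.54 without phloem cap replicate 2. Replicate 2 was the phloem cap library with the higher xylem and epidermis sums, whose part was again not tested.

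The remaining tested NIP gene, NIP7;1 (AT3G06100), a boric acid channel of anthers, had 0 counts in both phloem cap libraries, 0 and 5 in the pith and 11 in each vascular bundle library. Its level in phloem cap was at least 3.65-fold lower than in the vascular bundle, a difference that was not called (adjusted p = 0.0935, edgeR).

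SIP1;1 (AT3G04090), a water channel of the endoplasmic reticulum, had 97.9 and 131 CPM in phloem cap, 211 and 240 CPM in pith and 187 and 211 CPM in vascular bundle. The phloem cap was the lowest tissue, and pith and vascular bundle met at 211 CPM. Its log2 fold changes were -0.82 ± 0.29 in phloem cap against the vascular bundle and -0.99 ± 0.34 in phloem cap against pith, with adjusted p-values of 0.178 and 0.0615 by edgeR. SIP2;1 (AT3G56950), also of the endoplasmic reticulum, had 78.0 and 65.9 CPM in phloem cap, 44.6 and 57.6 CPM in pith and 56.8 and 46.2 CPM in vascular bundle, and no comparison was called.

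SIP1;2 (AT5G18290) had 23 and 54 counts in phloem cap, 0 in both pith libraries and 42 and 19 in vascular bundle. Its level was at least 8.67-fold lower in pith than in the vascular bundle and at least 10.5-fold higher in phloem cap than in pith, against the limit of 3 counts in a library. EdgeR did not call these differences (adjusted p = 0.0135 and 0.0118), and DESeq2 called both (adjusted p = 0.00227 and 0.00198). With single libraries left out, the edgeR log2 fold change in pith against the vascular bundle ran from -8.27 to -7.02. These values rest on 0 counts in pith. Genes on the opposite strand overlap SIP1;2 and SIP2;1, so that both counts are uncertain.

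The 10 genes that edgeR did not test are mostly known from seeds, pollen or roots. Besides TIP1;3 and NIP4;1, and the 4 genes without a count, TIP2;3 had 2 counts in a vascular bundle library and TIP3;2, a seed vacuole channel, had 1 count in a phloem cap library. TIP4;1 (AT2G25810) had 22 counts in phloem cap replicate 2, 4 in vascular bundle replicate 2 and 0 elsewhere. NIP3;1 (AT1G31885) had 18 counts in phloem cap replicate 2, 1 and 2 in the vascular bundle and 0 in the other libraries. Each of these genes reached more than 3 counts in no more than 2 libraries.

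In phloem cap and in pith, the libraries of a tissue differed in their general aquaporin level. Of the members with at least 10 counts in both libraries, 19 of 23 were higher in phloem cap replicate 2 than in replicate 1, with a median ratio of 1.81, while 51% of all genes were higher in replicate 2. In the pith 16 of 21 were higher in replicate 2 (median ratio 1.41, 52.6% of all genes), and in the vascular bundle 11 of 24 (median ratio 0.982, 49.2% of all genes). Most aquaporins were thus higher in the same library of the phloem cap. The exceptions among the 23 phloem cap values were TIP5;1, PIP2;8, SIP2;1 and NIP5;1, whose values are given above.

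Genes that work beside aquaporins were listed with the results of other analyses of these data known, and their calls follow by list. Plasma membrane proton pumps, which energize transport across the membrane that holds the PIP proteins, had 9 of 11 genes tested. In pith against the vascular bundle 0 were higher and 1 was lower (11.1%, near the 10.5% of all genes), AHA3, a pump of phloem companion cells, with 251 and 140 CPM in phloem cap, 0.771 and 2.89 CPM in pith and 103 and 56.6 CPM in vascular bundle. AHA3 was high where PIP2;7, PIP2;8 and PIP2;5 were high, with a log2 fold change of 6.72 ± 0.72 in phloem cap against pith (SE, adjusted p = 0.000727, edgeR). Against pith, 2 pumps were higher in phloem cap, AHA3 and AHA8, and 1 was lower, AHA4 (22.2% and 11.1%, against 8.33% and 4.34% of all genes). AHA4 had 1.79 and 2.06 CPM in phloem cap, 11.8 and 14.3 CPM in pith and 4.22 and 5.12 CPM in vascular bundle. AHA8, a pollen pump, had 258 and 66.3 CPM in phloem cap, 15.0 and 13.9 CPM in pith and 7.44 and 9.68 CPM in vascular bundle, with phloem cap replicate 1 the highest as for the pollen markers.

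Among 4 genes of the vacuolar proton pumps, which act on the membrane that holds the TIP proteins, 1 was higher in pith than in the vascular bundle and 0 were lower, where 5.44% and 10.5% of all genes were. This was VHA-a2, a subunit of the vacuolar proton pump, with 90.2 and 83.4 CPM in phloem cap, 244 and 286 CPM in pith and 107 and 113 CPM in vascular bundle. The pith libraries stood above all others (log2 fold change 1.27 ± 0.22 against the vascular bundle, adjusted p = 0.0061, edgeR). For phloem cap against pith VHA-a2 had a log2 fold change of -1.61 ± 0.33 (adjusted p = 0.00853, edgeR).

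Of 7 borate exporters, which move boron out of cells that NIP5;1 and NIP6;1 let it enter, 5 were tested in phloem cap against pith and 1 was called higher, where 8.33% of all genes were. BOR1, which loads boron into the xylem of roots, had 448 and 324 CPM in phloem cap, 31.5 and 40.7 CPM in pith and 139 and 64.1 CPM in vascular bundle. Its order of tissues was that of NIP6;1, with a log2 fold change of 3.41 ± 0.38 in phloem cap against pith (SE, adjusted p = 0.000636, edgeR). In pith against the vascular bundle, edgeR tested 3 of the 7 borate exporters and called 0. At an unadjusted p under 0.05, 0 of the 3 were higher and 2 were lower (18.2% and 24.1% of all genes). DESeq2 called 1 of 6 tested lower, where it called 13.6% of all genes lower.

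Of 10 regulators of PIP proteins, 9 were tested in pith against the vascular bundle, with 2 higher and 2 lower (22.2% each, against 5.44% and 10.5% of all genes). RMA1, a ubiquitin ligase of a family that holds PIP proteins in the endoplasmic reticulum for degradation, had 101 and 45.8 CPM in phloem cap, 418 and 405 CPM in pith and 98.4 and 79.5 CPM in vascular bundle. SYP121, a membrane fusion protein that helps to bring PIP2;7 to the plasma membrane, had 40.5 and 42.1 CPM in phloem cap, 220 and 203 CPM in pith and 58.8 and 84.5 CPM in vascular bundle. Pith libraries were the highest for both, with log2 fold changes of 2.21 ± 0.23 (RMA1, adjusted p = 0.000949, edgeR) and 1.56 ± 0.26 (SYP121, adjusted p = 0.00509) against the vascular bundle. OST1, a kinase that can phosphorylate PIP2;1 in guard cells, had 3.09 and 5.43 CPM in phloem cap, 0.826 and 1.37 CPM in pith and 9.28 and 10.3 CPM in vascular bundle. QSK1, a receptor kinase of a complex that regulates aquaporins, had 106 and 167 CPM in phloem cap, 22.8 and 25.2 CPM in pith and 93.2 and 114 CPM in vascular bundle. The pith was lowest for both kinases, with log2 fold changes of -3.15 ± 0.46 for OST1 (adjusted p = 0.00311, edgeR) and -2.11 ± 0.24 for QSK1 (adjusted p = 0.00122) against the vascular bundle.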

How the data were processed

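The deposited values are raw counts for each gene. The authors aligned single-end 50-base reads, not trimmed, to TAIR10 with STAR (2.5.0a), kept unique alignments and counted reads over whole Araport11 genes, ignoring strand. All 6 sample columns were used (0 left out). Tissues were taken from the labels.

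Counts were filtered (filterByExpr), TMM-normalized, fitted and tested with edgeR 4.0.16 (glmQLFit, robust; glmQLFTest) in R 4.3.3, on the 4 libraries of each comparison, with Benjamini-Hochberg adjustment over all genes tested. Genes were called at an adjusted p under 0.01 and over 2-fold, thresholds that the study applied to DESeq2's Wald test. The SE was calculated back from the log2 fold change and its F value. DESeq2 1.42.0 gave the alternative test. TPM used gene length with introns. Folds against a tissue with at most 3 counts in each library were computed against that limit. Python 3.11.15 and Biopython 1.88 aligned coding sequences of TAIR10.1, which held all 37051 gene identifiers. The tests were checked on simulated data.

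Gene members and lists were chosen with earlier results of these data known. Values in every library are given for genes of at least 100 TPM in a tissue or called by edgeR or DESeq2, and list genes are named where edgeR called them. PIP2;2, NIP7;1 and the untested genes were named beyond that rule. Alternatives were size factors, library totals, other count filters, 1 fit over all 6 libraries, an adjusted p of 0.05, glmTreat and each library left out.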

Additional observations from a re-analysis of the deposited data

How the results depend on the processing

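EdgeR called 0 aquaporins higher and 0 lower in phloem cap against the vascular bundle. DESeq2 called 2 and 2 there (2.89% and 3.92% of all genes). Leaving out the count filter or using an adjusted p of 0.05 (0.146% of all genes) gave 1 higher. In pith against the vascular bundle, DESeq2, no count filter and an adjusted p of 0.05 each gave 5 higher in place of 2. The share of all genes called higher rose too, from 5.44% to 8.19% by DESeq2 and to 10.1% at an adjusted p of 0.05. That share was not computed for fits without the count filter. With each library left out in turn, aquaporins called in phloem cap against the vascular bundle numbered 0 to 4 higher and 0 to 4 lower, in pith against the vascular bundle 2 to 6 higher and 7 to 10 lower, and in phloem cap against pith 7 to 8 higher and 3 to 4 lower. The highest counts in phloem cap against the vascular bundle came from fits with a lone phloem cap library. Each such fit leaves a lone library in a tissue, which is assumed to vary like those of the other tissue. The share of all genes called was not computed for these fits, so no conclusion is drawn from their counts. Size factors changed no call. The summed SIP level, as a ratio of TMM-normalized CPM in place of TPM, was 0.745 in phloem cap against the vascular bundle and 0.680 in phloem cap against pith.

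Library totals in place of TMM moved the median log2 fold change of all genes from 0.04 to 0.18 in phloem cap against the vascular bundle, from -0.04 to -0.24 in pith against the vascular bundle and from 0.07 to 0.41 in phloem cap against pith. They turned PIP2;3 in phloem cap against the vascular bundle (0.070), TIP2;1 (-0.20) and SIP1;1 (-0.033) in pith against the vascular bundle and PIP2;4 in phloem cap against pith (0.27), none of them called. The cause was not tested.

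Leaving out single libraries turned the sign of further values that were not called, so that their direction is not settled. In phloem cap against the vascular bundle, the log2 fold change ran from -0.078 to 1.04 for PIP1;4, -0.023 to 0.85 for PIP2;1, -0.41 to 0.17 for PIP2;3, -0.48 to 1.0 for PIP2;5 and -0.35 to 1.02 for SIP1;2. In pith against the vascular bundle it ran from -0.81 to 0.13 for PIP1;2, -0.14 to 0.52 for PIP2;1, -0.0025 to 0.83 for TIP1;1, -0.24 to 0.41 for TIP2;1 and -0.21 to 0.18 for SIP2;1. For phloem cap against pith it ran from -0.25 to 0.62 for PIP2;1, -1.55 to 0.57 for PIP2;4, -0.066 to 0.88 for TIP1;1 and -0.20 to 1.08 for TIP1;2.

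No paired analysis was possible because the labels give no replicate numbers and do not say which libraries of different tissues, if any, came from the same stems. With 2 libraries a tissue, a missed threshold does not show that levels were alike. Genes with few counts in a tissue, such as TIP5;1, NIP1;2, NIP7;1 and SIP1;2, are limited by depth.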
